A study of Mus musculus with 9 samples.

Results

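The genes of endoplasmic reticulum protein folding and export were followed in BV2, a line of immortalized microglia from mouse, after exposure to bacterial lipopolysaccharide (LPS). Members were the genes in the deposited expression table whose pathway annotation named protein processing in the endoplasmic reticulum or protein export and whose mean was at least 1 FPKM, a read level scaled to transcript length and library size, over the libraries. The stress regulators Atf4, Ddit3, Herpud1 and Xbp1 carry the label as well and were kept apart. Of 6462 genes listed, 106 carried a label, 4 of these were kept apart, none fell below the level filter, and 102 were members. Protein processing was named for 92 of them, protein export for 15, and both for 5. There were 3 groups, each of 3 libraries: cells given LPS at 200 ng/ml for 1 h, cells given LPS at 200 ng/ml for 12 h, and untreated cells taken at 0 h. All groups share 1 cell line with no genetic change given in the labels. Untreated cells were taken at 0 h alone, so LPS and time in culture cannot be told apart. Whether replicate libraries stand for independent cultures is not given in the labels, so p-values measure the spread between these libraries, which may be technical.

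Secreted and membrane proteins enter the endoplasmic reticulum through the Sec61 channel, guided by the signal recognition particle. Inside, signal peptides are cut, sugars are added, and chaperones and disulfide isomerases fold the chain. Folded cargo leaves in COPII vesicles, and misfolded chains are pulled back to the cytosol and degraded by the ubiquitin system, a route called ERAD. When unfolded chains build up, the sensors IRE1, PERK and ATF6 start the unfolded protein response, which raises the transcription of many of these genes. Microglia given LPS are known for secreting cytokines and for moving receptors to their surface, and both kinds of protein pass through this pathway.

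The deposited table holds genes that the authors' own test set apart in these samples, with every deposited q-value at or below 0.0999, so shares of changed genes run high throughout. Of the 6462 genes, 5643 reached the level filter and were tested. Summed FPKM of the listed genes was 195872 to 198075 in untreated libraries, 203515 to 205413 at 1 h and 223720 to 228207 at 12 h, with no overlap. The table gives no read counts, so the depth of each library is unknown and no counting interval is given. Of 13 microglia and macrophage markers, 9 were listed (Itgam, Cd68, Csf1r, Tyrobp, Trem2, Spi1, Fcer1g, Cx3cr1 and P2ry12). Their summed level was 1497 to 1625 FPKM in untreated libraries, 1433 to 1474 at 1 h and 1424 to 1481 at 12 h. Single markers moved both ways within that sum: at 12 h and in untreated cells Itgam averaged 70.3 and 27.9 FPKM and Spi1 89.3 and 62.7, but Trem2 averaged 47.5 and 90.5, Tyrobp 412 and 560, and P2ry12 0.22 and 1.24. Of the markers of astrocytes, neurons, oligodendrocytes, fibroblasts, endothelium and B or plasma cells, 1 was listed, Olig2, at 0 to 0.084 FPKM in untreated libraries and at 0 in all LPS libraries. These are bulk libraries, in which fewer cells of a type and less RNA per cell cannot be told apart.

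After 12 h of LPS most of the pathway was higher than in untreated cells. Of the 102 members, 72 rose, 9 fell and 21 did not pass the test (limma on log2(FPKM + 1), adjusted over all tested genes, of which 81.7% passed in either direction). That is 70.6% of members higher and 8.82% lower, beside 41.1% of all tested genes higher and 40.6% lower. The median log2 difference was 0.21 over members and 0.03 over all tested genes. All 3 libraries at 12 h lay above all 3 untreated libraries for 76 members, or 74.5%, beside 41.9% of tested genes. They lay below for 9, or 8.82%, beside 40.9%. The changes were mostly small: 15 members, 14.7%, were higher by at least 0.5 on the log2 scale, beside 11.9% of tested genes, and 4 were lower by as much, beside 17.4%. Hspa5 was the 1 member with a log2 difference of at least 1. Under quantile normalization the counts were 60 higher and 15 lower, beside 37.7% and 43.5% of tested genes. Members also had higher levels than tested genes, with a median of mean FPKM of 37.8 beside 12.9. Among genes with a mean of at least 5 FPKM, 66 of 94 members were higher and 9 lower, beside 44.2% and 36.5% of tested genes.

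After 1 h of LPS the members were divided. Of 102, 29 rose, 20 fell and 53 did not pass, beside 24.1% of tested genes higher, 34.9% lower and 59% called in either direction; the members' shares were 28.4% and 19.6%. The median log2 difference was 0.02 over members and -0.03 over all tested genes. Under quantile normalization the members' median was -0.03, with 19 higher and 30 lower, beside 22.4% and 35.7% of tested genes. All 3 libraries at 1 h lay above all untreated ones for 28 members (27.5%, beside 26.8% of tested genes) and below for 23 (beside 38.2%). Nfe2l2 and Ppp1r15a, 2 members or 1.96%, were higher by at least 0.5 on the log2 scale, beside 4.84% of tested genes, and 0 members were lower by as much, beside 4.27%. Between the LPS times, 72 members were higher at 12 h than at 1 h and 17 lower, beside 41.9% and 43.6% of tested genes (85.5% in either direction). The same 72 and 17 counts held for members whose 12 h libraries all lay above or all below the 1 h ones, beside 42.4% and 44.2%. By at least 0.5, 15 members were higher at 12 h than at 1 h and 3 lower, beside 12.2% and 11.9%. Across the 3 groups, 95 of the 102 members passed a moderated F test, a share near that of tested genes (5324 of 5643, 94.3%). The 1 h and 12 h contrasts use the same untreated libraries.

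**Figure D1:**
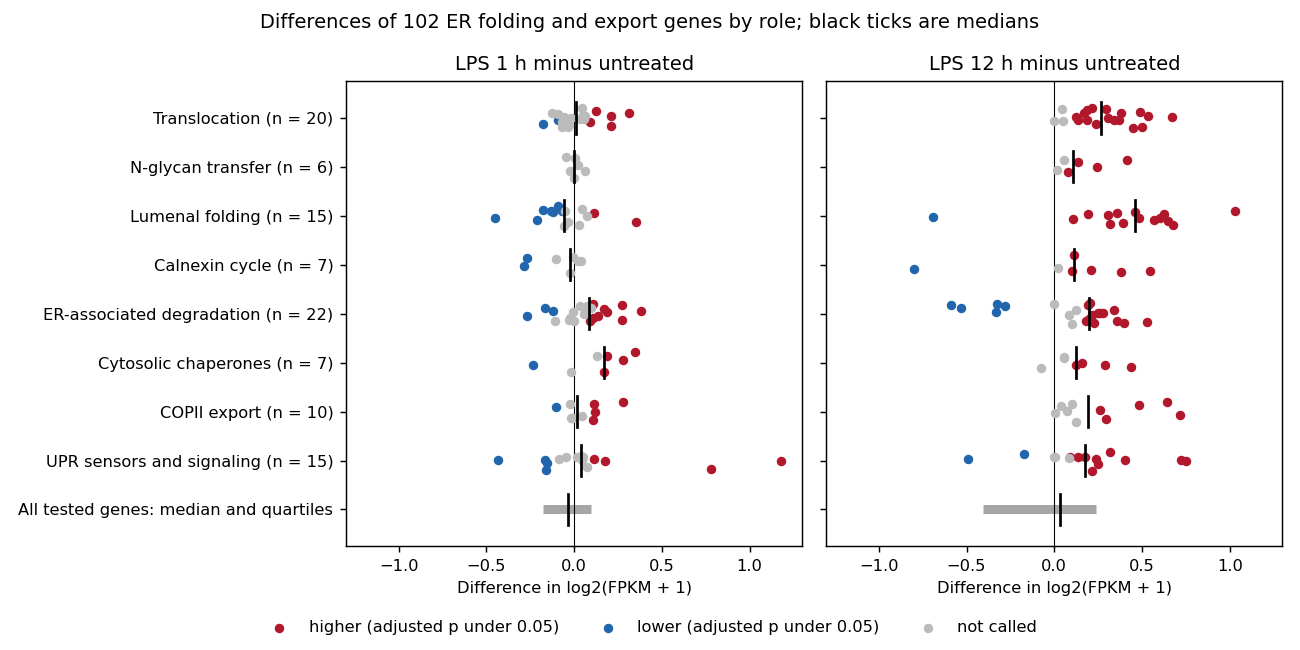
Log2 difference in FPKM + 1 from untreated cells for each of the 102 members (1 point a gene), at 1 h of LPS (left) and 12 h (right), by role. Red points were called higher, blue lower and grey not called; black ticks mark medians, and the bottom bar gives the median and quartiles of all 5643 tested genes. At 12 h the lumenal chaperones have the highest median of the 8 roles, 0.46, and at 1 h their median is -0.06.

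The 20 genes of targeting and translocation bring the chain to the membrane, pass it through and cut its signal peptide. Of these, 17 rose at 12 h (85%, beside 41.1% of tested genes) and 3 were not called. By limma 0 fell (beside 40.6% of tested genes), also at an unadjusted p under 0.05. The median log2 difference was 0.27 (0.15 under quantile normalization, with 11 higher and 1 lower). Srprb, the membrane anchor of the signal recognition particle receptor, had 27.6, 27.5 and 27.8 FPKM in untreated libraries, 35, 33.9 and 34.8 at 1 h and 44.3, 43.5 and 45.8 at 12 h. Its libraries separated at each step. Its log2 difference was 0.67 ± 0.0314 at 12 h (SE, adjusted p = 8.1e-11), and after 1 h it was 0.32 (adjusted p = 1.14e-06). Srpr, the other receptor subunit, was 0.50 higher at 12 h and 0.21 higher at 1 h on the same scale. Ssr2, a subunit of the translocon-associated complex, had 257, 237 and 247 FPKM in untreated libraries, 256, 266 and 266 at 1 h, and 355, 355 and 363 at 12 h. The 12 h libraries stood above all others, with a log2 difference from untreated of 0.53. The channel's pore subunit Sec61a1 had 104, 102 and 104 FPKM untreated, 112, 112 and 113 at 1 h, and 139, 143 and 142 at 12 h, a log2 difference of 0.45 at 12 h. Rrbp1, which binds ribosomes to the membrane, rose by 0.49 at 12 h and was -0.07 at 1 h, where it did not pass (adjusted p = 0.0814; called lower under quantile normalization, -0.12). The channel's small subunit Sec61b was 0.13 higher at 12 h. That call was lost without untreated library 2 (0.08, adjusted p = 0.0531), and under quantile normalization the difference was -0.07 (adjusted p = 0.121). Sec11c, a catalytic subunit of signal peptidase, fell by 0.18 at 1 h and rose by 0.13 at 12 h. The 12 h call for Sec11c was lost without untreated library 2 or 3 or 12 h library 2 or 3 (0.11 to 0.13, adjusted p = 0.0582 to 0.0884) and under quantile normalization (0.03, adjusted p = 0.576). At 1 h the list had 5 higher (25%, near the 24.1% of tested genes), 2 lower (10%, beside 34.9%) and 13 not called. The 1 h median was 0.01 (-0.05 under quantile normalization, with 3 higher and 8 lower).

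The 6 measured subunits of oligosaccharyltransferase, the enzyme that attaches N-linked sugars as the chain enters, had 4 higher at 12 h (66.7%, beside 41.1% of tested genes) and 2 not called, and the median was 0.11. Under quantile normalization 3 rose, 3 fell and the median was -0.02. Rpn1 had 81.2, 78.4 and 80.3 FPKM in untreated libraries, 84, 82.3 and 84.3 at 1 h, and 107, 105 and 108 at 12 h. It was higher at 12 h than in untreated cells by 0.41 (adjusted p = 3.2e-09), and at 1 h it missed the threshold (0.06, adjusted p = 0.064). Of the catalytic subunits, Stt3a was 0.24 higher at 12 h (adjusted p = 1.26e-06), while Stt3b, named here after its values were seen, differed by 0.02 with a 95% interval of -0.04 to 0.08 and was lower under quantile normalization (-0.13, adjusted p = 0.000463). Rpn2 and Dad1 were called higher at 12 h by 0.08 and 0.14. The Rpn2 call was lost without untreated library 2 or 3 or 12 h library 1 (0.06 to 0.07, adjusted p = 0.0616 to 0.0811), and quantile normalization put Rpn2 lower, at -0.12. The Dad1 call was lost without untreated library 1 or 12 h library 2 (0.10 to 0.12, adjusted p = 0.0507 to 0.0678). At 1 h limma called 0 of the 6, beside 59% of tested genes called in either direction. Of the 6, 1, Rpn1, had an unadjusted p under 0.05. Under quantile normalization 3 were lower.

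The 15 lumenal chaperones and disulfide-forming enzymes had the highest median at 12 h among the 8 roles, 0.46. At that time 14 were higher (93.3%, beside 41.1% of tested genes) and 1 lower (6.67%, beside 40.6%). Under quantile normalization the median was 0.36, with 13 higher and 1 lower. At 1 h, 2 were higher (13.3%, beside 24.1% of tested genes), 7 lower (46.7%, beside 34.9%) and 6 not called. The 1 h median was -0.06. Hspa5 encodes BiP, the central chaperone of the lumen and the protein that holds the stress sensors inactive. It had 323, 320 and 324 FPKM in untreated libraries, 416, 411 and 409 at 1 h, and 650, 644 and 684 at 12 h. The 3 groups did not overlap, and the mean was 2.05 times the untreated mean at 12 h and 1.28 times at 1 h. On the log2 scale the differences were 1.03 ± 0.0261 (SE, adjusted p = 1.01e-13) and 0.35 (adjusted p = 4.49e-08). Hyou1, which exchanges nucleotide on BiP, was 0.68 higher at 12 h and 0.11 higher at 1 h; the 1 h call was lost under quantile normalization (0.05, adjusted p = 0.0974). Dnajb11, a BiP cochaperone, was 0.65 higher at 12 h, and missed the threshold at 1 h (0.08, adjusted p = 0.0844), which it passed without 1 h library 1 (0.11, adjusted p = 0.0179). Hsp90b1, the HSP90 of the lumen, known as GRP94, had 204, 217 and 217 FPKM untreated, 203, 195 and 200 at 1 h, and 290, 302 and 298 at 12 h. It was higher at 12 h by 0.48 (adjusted p = 1.85e-09) and lower at 1 h by a log2 difference of -0.09 (adjusted p = 0.0181).

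Several of the disulfide enzymes were lower at 1 h and higher at 12 h than in untreated cells. Ero1l, the oxidase that recharges the disulfide isomerases, had 37, 39.9 and 43.7 FPKM in untreated libraries, 27.9, 28.6 and 30.8 at 1 h, and 62.7, 60.6 and 63.9 at 12 h. The groups did not overlap. It fell by 0.45 at 1 h (adjusted p = 4.93e-06) and was 0.62 higher than untreated at 12 h (adjusted p = 4.5e-08), so that 12 h exceeded 1 h by 1.08. Pdia4, a disulfide isomerase, had 31.9, 32.8 and 31.4 FPKM untreated, 29.5, 29.5 and 28.4 at 1 h, and 49.4, 47.4 and 50.6 at 12 h. The log2 differences of Pdia4 were -0.13 at 1 h and 0.60 at 12 h. The classical isomerase P4hb was -0.21 at 1 h and 0.39 at 12 h, and Pdia3, which works with calreticulin on glycoproteins, was -0.07 and 0.30. The 1 h calls of Hsp90b1 and Pdia3 rested on few libraries. Without untreated library 2 or 3 or 1 h library 2 Hsp90b1 was lost (-0.08, adjusted p = 0.0713 to 0.0775), and without untreated library 1 or 3 or 1 h library 2 Pdia3 was lost (-0.07 to -0.06, adjusted p = 0.0524 to 0.0675). Erp29, a member of the isomerase family without the redox-active site, went the other way. It had 188, 179 and 181 FPKM in untreated libraries, 167, 172 and 165 at 1 h, and 113, 114 and 111 at 12 h. Each group lay below the one before it in time, and the 12 h level was 0.617 times the untreated mean (log2 difference -0.69, adjusted p = 1.91e-11).

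**Figure D2:**
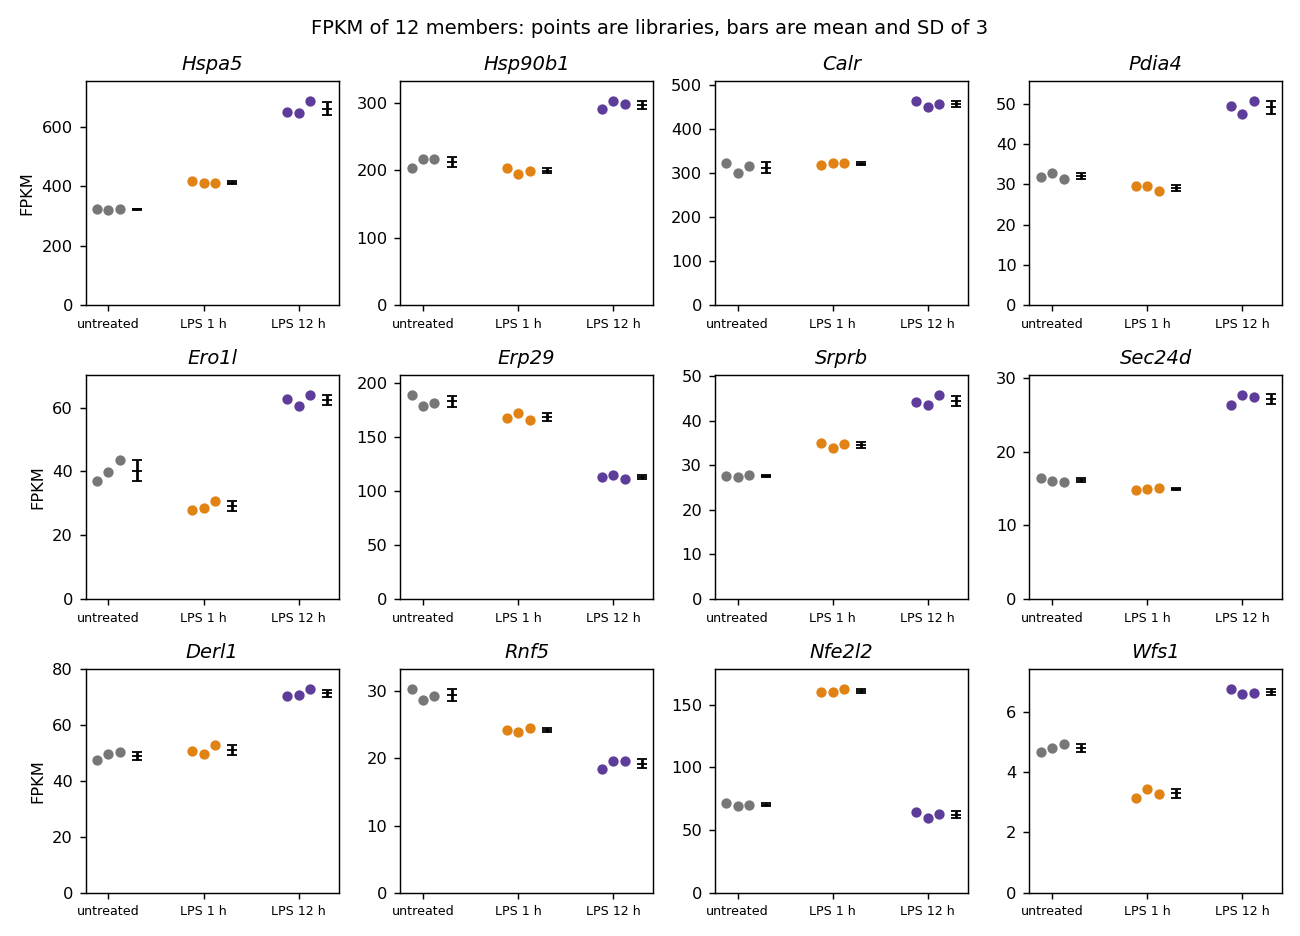
FPKM of 12 members in each of the 9 libraries (points), with the mean and SD of each group beside them (bars, n = 3), at 0 h (untreated), 1 h and 12 h of LPS; each panel has its own axis. Hspa5 climbs at both times, Ero1l and Wfs1 dip at 1 h and are above untreated at 12 h, Nfe2l2 peaks at 1 h, and Erp29 and Rnf5 are lowest at 12 h.

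The promoters of the members were searched for the letters of 4 response elements. The choice of members used no sequence. The elements were picked as known elements of stress responses, though, so matches among members are not independent support. RefSeq windows of GRCm38.p6, 250 bases before to 50 after each annotated start, were matched for 84 members, and both strands were read. The endoplasmic reticulum stress element (ERSE), CCAAT and CCACG with 9 free bases between them, is known to be bound by NF-Y and ATF6. It stood in the windows of 7 of the 84 members (8.33%) and of 11 of 4614 tested genes with a window (0.238%). Of all 27025 genes with a RefSeq window, expressed here or not, 37 held it (0.137%). The tested genes and all genes include these members. The 7 were Hspa5, Hsp90b1, Pdia6, Dnajc3 and Ero1lb of the lumenal list, Calr and Syvn1. They are printed because they are the members with the element's exact letters, each read in the element's own direction, 5′ to 3′, with the fixed letters in capitals.
Hspa5, chr2:34772025-34772043, plus strand: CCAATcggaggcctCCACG
Hsp90b1, chr10:86705533-86705551, plus strand, opposite to the gene: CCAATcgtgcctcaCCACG
Hsp90b1, chr10:86705638-86705656, minus strand: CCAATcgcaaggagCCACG
Pdia6, chr12:17266491-17266509, plus strand: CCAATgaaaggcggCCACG
Dnajc3, chr14:118937827-118937845, plus strand: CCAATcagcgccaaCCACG
Ero1lb, chr13:12565682-12565700, minus strand, opposite to the gene: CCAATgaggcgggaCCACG
Calr, chr8:84847075-84847093, plus strand, opposite to the gene: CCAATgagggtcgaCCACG
Syvn1, chr19:6046532-6046550, plus strand: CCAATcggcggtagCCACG

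All 7 members with an ERSE rose at 12 h, by 0.18 to 1.03 on the log2 scale with a median of 0.46. The 77 members searched that lack those letters had a median of 0.21, with 52 higher, 7 lower and 18 not called. Of the 7 with the element, 5 belong to the lumenal list, whose 15 members also had a median of 0.46, with 14 higher. The difference between members with and without the letters is therefore not separated from role. Hsp90b1 was the 1 member with a pair of sites. The 250 bases before the annotated starts of Hspa5 and Hsp90b1, the most raised chaperone and the gene with the pair, are given on the gene's own strand with the whole elements in capitals.
Hspa5, chr2:34771840-34772089, plus strand: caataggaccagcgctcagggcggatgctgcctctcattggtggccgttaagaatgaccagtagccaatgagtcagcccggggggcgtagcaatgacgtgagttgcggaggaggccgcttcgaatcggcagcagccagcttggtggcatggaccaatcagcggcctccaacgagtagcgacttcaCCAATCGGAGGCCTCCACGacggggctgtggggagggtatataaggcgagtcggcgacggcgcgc
Hsp90b1, chr10:86705445-86705694, minus strand: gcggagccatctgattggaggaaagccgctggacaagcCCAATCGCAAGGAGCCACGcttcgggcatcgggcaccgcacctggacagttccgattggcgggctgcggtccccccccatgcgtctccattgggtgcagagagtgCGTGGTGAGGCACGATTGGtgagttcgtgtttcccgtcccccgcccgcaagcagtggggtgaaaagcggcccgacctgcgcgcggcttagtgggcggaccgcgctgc
The shorter element ERSE-II, ATTGG and CCACG with 1 free base between them, stood in 1 member, Dnajb11 (1.19%, beside 0.152% of tested genes and 0.0444% of all), just downstream of the start.
Dnajb11, chr16:22857852-22857862, plus strand: ATTGGcCCACG
The UPRE letters TGACGTGG, known as a site of XBP1, stood in 4 members (4.76%, beside 1.04% of tested genes and 0.714% of all): Sec24d, Vcp, Txndc5 and Mapk8. Of these, the first 3 were called higher at 12 h and Mapk8 was not called (0.08; called under quantile normalization, 0.16). The Txndc5 call, a log2 difference of 0.11, was lost without untreated library 2 or 12 h library 3 (0.07 to 0.09, adjusted p = 0.0676 to 0.107), and quantile normalization turned it round (-0.02, adjusted p = 0.680). The amino acid response letters TGATGNAAT, known to be read by ATF4 with its partners, stood in Map2k7 alone (1.19%, beside 0.542% and 1.08%). ERSE, ERSE-II and UPRE share the letters CCACG or their reverse complement CGTGG, and no sites overlapped among the members found. With 1 mismatch allowed in the 10 fixed letters of ERSE, a search added after the exact one, 16 of 84 members matched (19.0%), beside 2.8% of tested genes and 1.72% of all; among them were 7 of the 13 lumenal members searched. A match describes letters in a window and not a site in use.

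**Figure D3:**
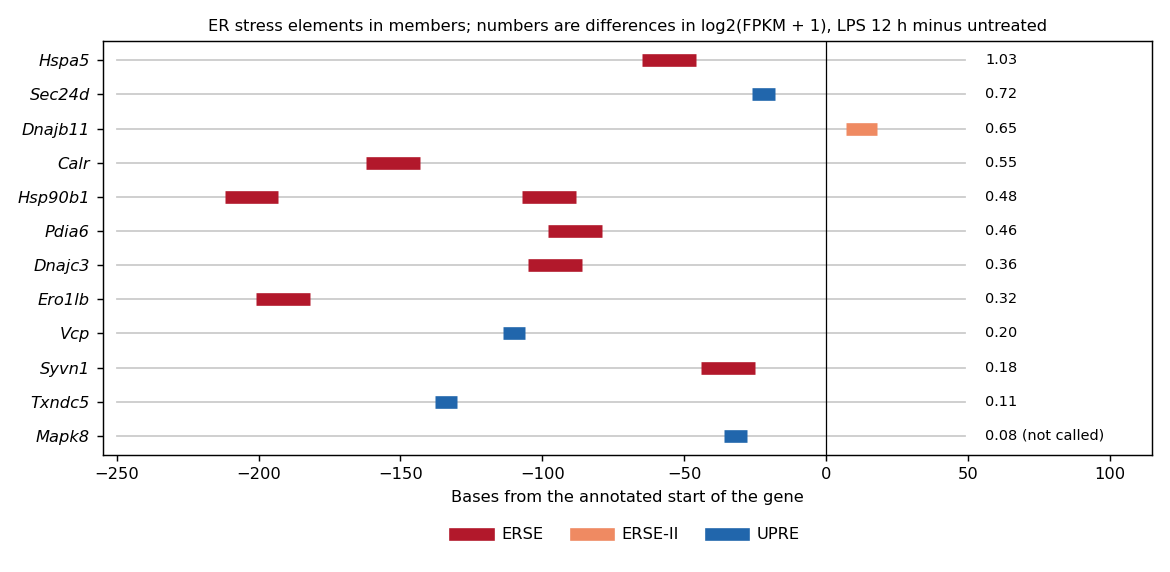
Positions of ERSE, ERSE-II and UPRE matches relative to the annotated start (base 0) in the 12 members that hold 1, with each gene's log2 difference at 12 h of LPS against untreated beside it. Matches lie mostly upstream of the start, and 11 of the 12 members were called higher at 12 h.

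In the calnexin and calreticulin cycle, which folds glycoproteins and trims mannose from those that fail, 5 of 7 members rose at 12 h (71.4%, beside 41.1% of tested genes). A further 1 fell (14.3%, beside 40.6%) and 1 was not called, and the median was 0.11. Calr, calreticulin itself, had 322, 300 and 316 FPKM in untreated libraries, 318, 323 and 323 at 1 h, and 463, 450 and 457 at 12 h. The 12 h libraries stood clear of the rest (log2 difference 0.55 from untreated, adjusted p = 2.34e-10), and the 1 h difference of 0.04 did not pass (adjusted p = 0.219). The mannosidases split. Man1a, of the Golgi, was -0.28 at 1 h and 0.38 at 12 h, and Edem2, which trims mannose to mark chains for disposal, was -0.27 at 1 h and 0.21 at 12 h; all 4 differences passed. Edem1, a relative of Edem2, was 0.11 higher at 12 h, and quantile normalization gave -0.01 (adjusted p = 0.747). Man1c1, also of the Golgi, had 14.2, 14.8 and 13.6 FPKM untreated, 13, 12.9 and 13.4 at 1 h, and 7.27, 7.82 and 8.13 at 12 h. It had the largest fall of the 102 members at 12 h, a log2 difference of -0.80 (adjusted p = 7.99e-10), or 0.545 times the untreated mean.

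The degradation genes moved both ways. Of 22 ERAD members, 13 rose at 12 h (59.1%, beside 41.1% of tested genes), 5 fell (22.7%, beside 40.6%) and 4 were not called. The median was 0.20 (0.11 under quantile normalization). At 1 h 10 rose (45.5%, beside 24.1% of tested genes) and 3 fell (13.6%, beside 34.9%), with a median of 0.08. Under quantile normalization 6 rose and 5 fell at 1 h, beside 22.4% and 35.7% of tested genes, with a median of 0.02. Derl1, part of the membrane channel through which chains leave, had 47.4, 49.6 and 50.2 FPKM in untreated libraries, 50.7, 49.5 and 53 at 1 h, and 70.4, 70.7 and 72.9 at 12 h. The 12 h libraries did not overlap the others (log2 difference from untreated 0.53, adjusted p = 2.41e-09). The membrane ubiquitin-conjugating enzyme Ube2j2 was 0.40 higher at 12 h and 0.27 at 1 h, and Rad23b, a shuttle to the proteasome, 0.36 and 0.11. The core ligase parts moved less: Sel1l was -0.12 at 1 h and 0.23 at 12 h, Syvn1 was 0.09 and 0.18, and Vcp, the ATPase that pulls chains out, was 0.11 and 0.20. Both calls of Vcp were lost under quantile normalization (0.03, adjusted p = 0.436 and 0.350), and so was the 1 h call of Rad23b (0.04, adjusted p = 0.263). The 1 h call of Syvn1 (adjusted p = 0.0462) was lost without any 1 library except untreated library 3 (0.08 to 0.10, adjusted p = 0.05 to 0.138).

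The 5 ERAD members that fell at 12 h were Rnf5, Ube2d1, Atxn3, Skp1a and Ubqln4. Rnf5, a membrane ubiquitin ligase, had 30.3, 28.6 and 29.2 FPKM in untreated libraries, 24.1, 23.9 and 24.5 at 1 h, and 18.5, 19.6 and 19.5 at 12 h, each group below the one before. Its log2 differences from untreated were -0.27 (adjusted p = 2.19e-05) and -0.59 (adjusted p = 1.57e-09). Ube2d1, a ubiquitin-conjugating enzyme, was -0.17 at 1 h and -0.53 at 12 h; the 1 h call was lost without untreated library 1 or 3 or 1 h library 1 (-0.14 to -0.13, adjusted p = 0.0663 to 0.0783). Atxn3, a deubiquitinase that works with Vcp, was 0.14 higher at 1 h and fell by 0.33 at 12 h. The 1 h call of Atxn3 was lost without untreated library 1 or 1 h library 3 (0.09 to 0.12, adjusted p = 0.0581 to 0.0759) and under quantile normalization (0.08, adjusted p = 0.146). Yod1, another deubiquitinase of this route, was 0.38 higher at 1 h (adjusted p = 0.000212) and differed by 0.12 at 12 h, which did not pass (adjusted p = 0.0997) but passed without untreated library 1 or 12 h library 2 (0.17 to 0.18, adjusted p = 0.0251 to 0.0411) and under quantile normalization (0.28). Reads of the Ube2d genes and of Skp1a can be shared with near-identical copies, and how they were assigned is not given in the sources used here.

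Of the 7 cytosolic chaperones with the label, 4 rose at 12 h (57.1%, beside 41.1% of tested genes), and the median was 0.12. By limma 0 fell (beside 40.6% of tested genes), also at an unadjusted p under 0.05. Under quantile normalization the 12 h median was 0.06, with 3 higher and 1 lower. At 1 h 4 rose (57.1%, beside 24.1% of tested genes) and 1 fell (14.3%, beside 34.9%), with a median of 0.17. Hsp90aa1, the inducible cytosolic HSP90 named in the study's title, had 588, 639 and 631 FPKM in untreated libraries, 627, 603 and 607 at 1 h, and 665, 701 and 656 at 12 h. The 12 h libraries lay above both other groups, by 0.12 over untreated cells (adjusted p = 0.00407), a mean 1.09 times as high. The 1 h difference was -0.01 (adjusted p = 0.726). Hspa8, the constitutive HSP70, was the highest member by level, with 1231, 1231 and 1251 FPKM untreated, 1473, 1401 and 1304 at 1 h, and 1410, 1353 and 1374 at 12 h. It was 0.17 higher at 1 h (0.08 under quantile normalization, adjusted p = 0.190) and 0.16 higher at 12 h. Quantile normalization turned both 12 h differences round, to -0.05 for Hsp90aa1 (adjusted p = 0.269) and -0.12 for Hspa8 (adjusted p = 0.0378). Both genes have processed pseudogenes that can share reads. Dnajb1, an HSP40 of the heat shock response, had 12.4, 12.4 and 13.1 FPKM untreated, 16, 16.6 and 16.3 at 1 h, and 11.9, 11.4 and 12.5 at 12 h. It was higher at 1 h (0.35, adjusted p = 7.18e-06), and its 12 h difference of -0.07 (adjusted p = 0.116) passed as lower without 12 h library 3 (-0.10, adjusted p = 0.046). Dnaja2, another HSP40, was 0.28 higher at 1 h and 0.29 higher at 12 h, and Dnajb2 was 0.44 higher at 12 h. Hspa4l, an HSP110 relative, fell by 0.23 at 1 h, which was lost under quantile normalization (-0.08, adjusted p = 0.195).

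Among the 10 members of COPII vesicle export, 5 rose at 12 h (50%, near the 41.1% of tested genes) and 5 were not called. By limma 0 fell (beside 40.6% of tested genes), also at an unadjusted p under 0.05, and the median was 0.19. Sec24d, a coat subunit that selects cargo, had 16.4, 16 and 15.9 FPKM in untreated libraries, 14.8, 14.9 and 15 at 1 h, and 26.3, 27.6 and 27.4 at 12 h. Its 12 h log2 difference from untreated was 0.72 (adjusted p = 1.13e-10), the largest of the list, and its 1 h difference was -0.10. The inner coat subunit Sec23b was 0.64 higher at 12 h and 0.11 higher at 1 h, the 1 h call being lost under quantile normalization (0.06, adjusted p = 0.127). Lman1, a receptor that carries glycoproteins into the vesicle, was 0.48 higher at 12 h and -0.01 at 1 h, which did not pass. Preb, which activates the GTPase Sar1, was 0.30 higher at 12 h, and Sec13, of the outer coat, 0.26. The other cargo subunit tested, Sec24a, moved at 1 h (0.28, adjusted p = 0.000783), and its 12 h difference of 0.12 did not pass (adjusted p = 0.0576). Sec24a passed at 12 h without untreated library 2 or 12 h library 3 (0.16, adjusted p = 0.0282 to 0.0317), with the replicate block (adjusted p = 0.0454) and under quantile normalization (0.20). At 1 h the list had 4 higher (40%, beside 24.1% of tested genes) and 1 lower (10%, beside 34.9%). Under quantile normalization 1 was higher and 1 lower at 1 h. The 1 h call of Sec24d was lost without untreated library 1 or 1 h library 1 (-0.10 to -0.09, adjusted p = 0.0526 to 0.0623).

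The 15 stress sensors and signaling genes had the largest single change at 1 h and a median of 0.18 at 12 h. At 12 h 10 were higher (66.7%, beside 41.1% of tested genes), 2 lower (13.3%, beside 40.6%) and 3 not called. Nfe2l2 encodes NRF2, a stress transcription factor known as a substrate of PERK, and had 71.6, 69.5 and 70.1 FPKM in untreated libraries, 160, 160 and 162 at 1 h, and 64.6, 59.5 and 63.1 at 12 h. It was 2.28 times the untreated mean at 1 h (log2 difference 1.18, adjusted p = 2.79e-13) and below all untreated libraries at 12 h (-0.17, adjusted p = 0.00016). Ppp1r15a, whose product GADD34 restarts translation by removing phosphate from eIF2α, had 6.25, 5.47 and 5.89 FPKM untreated, 10.7, 11.8 and 9.95 at 1 h, and 10.5, 10.1 and 11.2 at 12 h. Both LPS groups lay above untreated cells, by 0.78 at 1 h and 0.75 at 12 h, and 12 h differed from 1 h by -0.03, which did not pass. The eIF2α kinases moved apart at 12 h. Eif2ak2, the RNA-activated kinase PKR, had 10.8, 10.5 and 9.84 FPKM untreated, 9.44, 9.57 and 10.1 at 1 h, and 18, 17.4 and 17.7 at 12 h, a difference of 0.72 (adjusted p = 1.21e-09). Eif2ak4, the amino acid sensor GCN2, had 9.75, 9.98 and 10.1 FPKM untreated, 9.89, 10 and 8.92 at 1 h, and 7.03, 7.01 and 6.28 at 12 h. Its 12 h libraries lay below all others (-0.49, adjusted p = 6.35e-07).

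Among the sensors the 12 h differences were small, at 0.09 to 0.25 on the log2 scale. Ern1, the gene of IRE1α, had 2.44, 2.63 and 2.67 FPKM in untreated libraries, 2.48, 1.88 and 2.23 at 1 h, and 3.41, 3.26 and 3.10 at 12 h. It was 0.25 higher at 12 h (adjusted p = 0.00363), a difference understated at this low level. The 12 h mean of Ern1 was 1.26 times the untreated mean. Its 1 h difference of -0.17 (adjusted p = 0.0482) overlapped the untreated libraries and was lost without any 1 library except untreated library 1 or 1 h library 1 (-0.18 to -0.09, adjusted p = 0.0513 to 0.238), with the replicate block, and under quantile normalization (-0.01, adjusted p = 0.882). Atf6 was 0.09 higher at 12 h, a call lost without untreated library 2 or 3 or 12 h library 1 or 2 (0.08 to 0.09, adjusted p = 0.0517 to 0.0664) and under quantile normalization (0.05, adjusted p = 0.161). Atf6b, a relative of Atf6 named here after its values were seen, was 0.24 higher at 12 h (adjusted p = 0.000263). Its 12 h libraries all lay above the untreated ones. Eif2ak3, the gene of PERK, was not analysed here. Wfs1, a membrane protein that restrains ATF6 signaling, had 4.65, 4.81 and 4.93 FPKM untreated, 3.14, 3.45 and 3.28 at 1 h, and 6.75, 6.58 and 6.62 at 12 h. Its 3 groups did not overlap: it fell by 0.43 at 1 h (adjusted p = 2.66e-06), and the 12 h difference was 0.40 (adjusted p = 1.79e-06). Bax, an effector of cell death, was 0.32 higher at 12 h.

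Set side by side, the calls at 1 h and 12 h show when the members moved. The commonest pattern, in 38 members (37.3%, beside 18.4% of tested genes), was no call at 1 h and higher at 12 h. A further 20 (19.6%, beside 13.9%) were higher at both times. Another 14 (13.7%, beside 8.7%) were lower at 1 h and higher at 12 h, 6 of them lumenal chaperones and enzymes: Dnajc1, Ero1l, Hsp90b1, P4hb, Pdia3 and Pdia4. Of these 14, 9 kept both calls without any 1 library and 7 kept both under all alternatives in which they were tested; the 7 were Ero1l, P4hb, Pdia4, Edem2, Man1a, Sel1l and Wfs1. Ero1l and Wfs1 were the members with differences of at least 0.3 in both directions. Erp29, Rnf5 and Ube2d1 were lower at both times, 3 members or 2.94%, beside 20.3% of tested genes. Atxn3 and Nfe2l2 were higher at 1 h and lower at 12 h, 2 members or 1.96%, beside 4.15%.

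**Figure D4:**
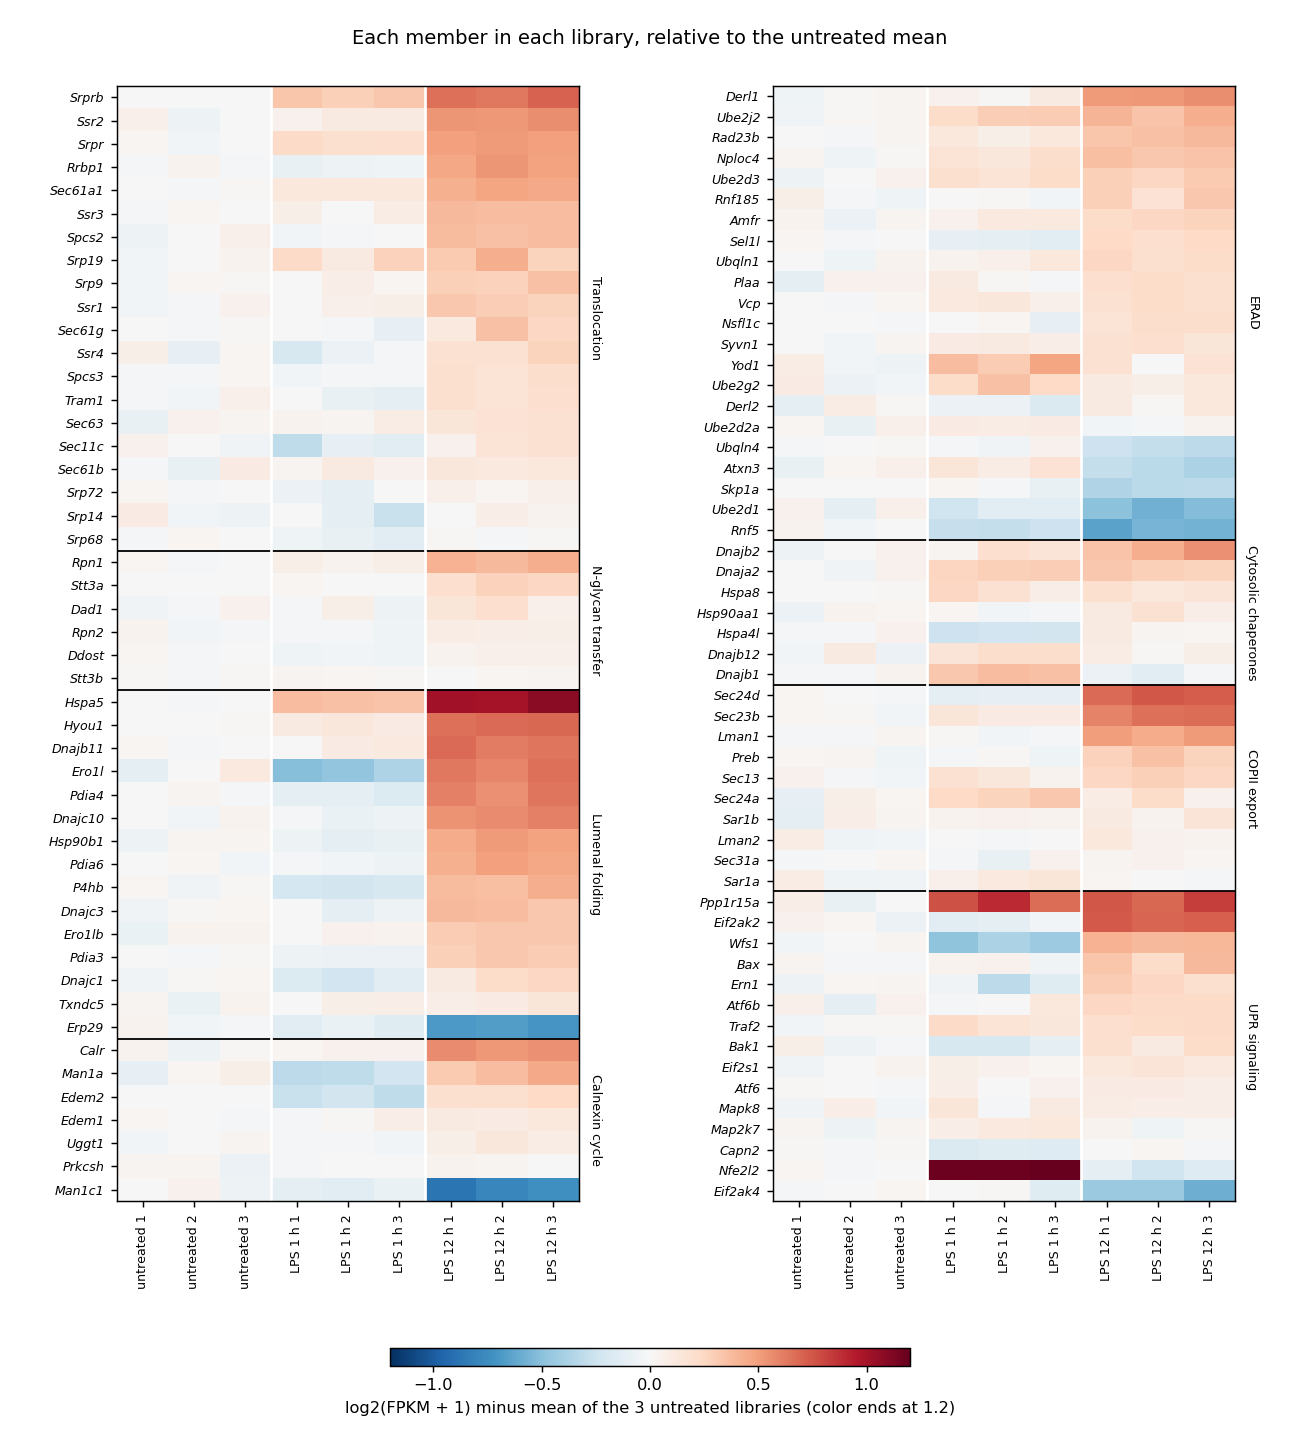
Log2(FPKM + 1) of each of the 102 members (rows, grouped by role) in each of the 9 libraries (columns: untreated, 1 h, 12 h), minus the gene's untreated mean; the color scale ends at 1.2 in each direction. The 12 h columns are mostly raised, most of all among the lumenal chaperones, and the 1 h columns are mixed.

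Summed over the 102 members, the level was 7316 ± 69.0 FPKM in untreated cells, 7681 ± 93.1 at 1 h and 8884 ± 38.3 at 12 h (SD, n = 3 each). As a share of all listed FPKM, which itself grew, this was 3.71%, 3.76% and 3.93%. The lumenal list summed to 1564 ± 11.9 FPKM untreated, 1572 ± 4.44 at 1 h and 2205 ± 35.2 at 12 h (SD, n = 3 each), 1.41 times the untreated mean at 12 h. The ratio of the 12 h mean to the untreated mean was 1.33 for the calnexin cycle, 1.25 for translocation, 1.22 for COPII export, 1.12 for oligosaccharyltransferase, 1.11 for cytosolic chaperones and 1.09 for both ERAD and stress signaling. Over all listed genes the ratio was 1.15, above the last 4 of these roles. Stress signaling was higher at 1 h, at 1.22 times the untreated sum, and Nfe2l2 alone averaged 161 FPKM at 1 h beside 70.4 in untreated cells. At 12 h the share of listed FPKM was higher than in untreated cells for the lumenal list (0.976% and 0.794%), the calnexin cycle (0.27% and 0.232%), translocation (0.724% and 0.662%) and COPII export (0.155% and 0.146%). It was lower at 12 h than in untreated cells for oligosaccharyltransferase (0.227% and 0.233%), ERAD (0.4% and 0.422%), cytosolic chaperones (0.976% and 1.01%) and stress signaling (0.207% and 0.217%).

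**Figure D5:**
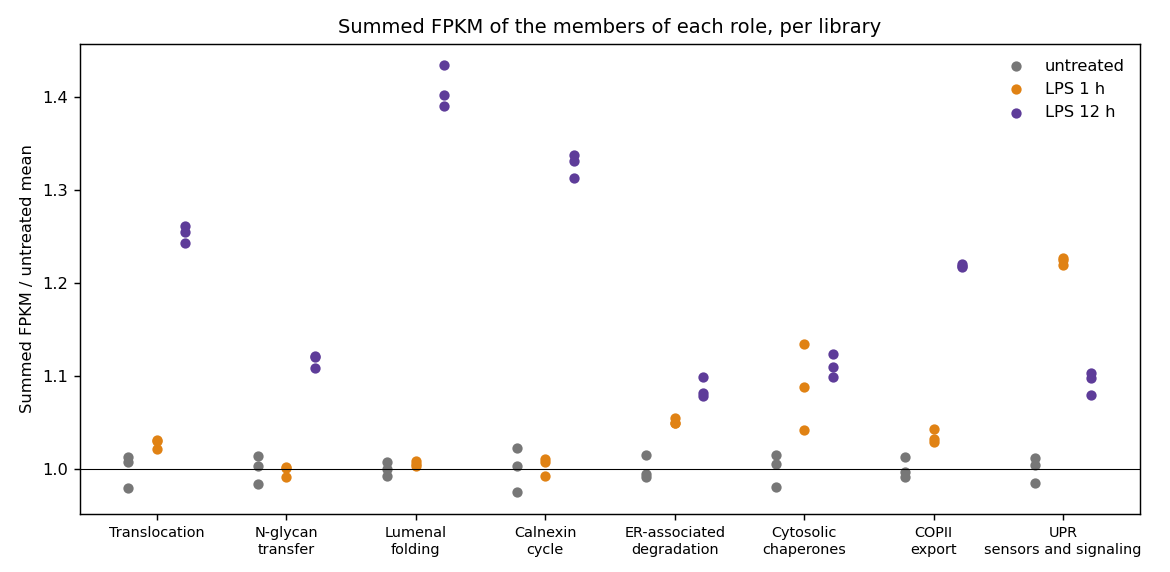
Summed FPKM of each role in each library, divided by the role's untreated mean, at 0 h (untreated), 1 h and 12 h of LPS (points are libraries; the line marks the untreated mean). The lumenal chaperones reach 1.41 at 12 h, and stress signaling peaks at 1 h.

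The 4 regulators kept apart did not move alike. At 12 h Ddit3, the gene of the stress factor CHOP, was 1.78 higher, Herpud1, an ERAD scaffold, 1.58 and Atf4, a transcription factor of stress and amino acid supply, 1.26; Xbp1, whose spliced form drives many chaperone genes, was -0.07 and did not pass (adjusted p = 0.113). Leaving out untreated library 2 or 12 h library 3 put Xbp1 past the threshold as lower at 12 h (-0.09, adjusted p = 0.0363 to 0.048), as did quantile normalization (-0.24). FPKM was given per gene, so the spliced form of Xbp1 was not measured apart. At 1 h Herpud1 was 0.99 higher, Atf4 0.37 and Ddit3 0.32, and Xbp1 fell by 0.26. Ddit3 averaged only 1.18 FPKM in untreated cells, so its differences in log2(FPKM + 1) are understated. Its mean was 1.47 times the untreated mean at 1 h and 5.51 times at 12 h, beside 1.29 and 2.40 times for Atf4. Beyond the pathway labels, a list of 84 other genes of the same organelle had 46 tested. Of these, 36 (78.3%, beside 41.1% of tested genes) rose at 12 h, 3 (6.52%, beside 40.6%) fell and 7 were not called; the median was 0.22. At 1 h 7 rose (15.2%, beside 24.1%) and 9 fell (19.6%, beside 34.9%). This list was drawn up with earlier results of these data known. Manf, a secreted stress factor, had 64.5, 64 and 62.8 FPKM in untreated libraries, 69.3, 68 and 68.2 at 1 h, and 132, 135 and 138 at 12 h, a 12 h difference of 1.07. Creld2 (0.89) and Sdf2l1 (0.80), stress-induced lumenal proteins, and Surf4 (0.80), a cargo receptor, were also higher at 12 h. Dnajb9, a BiP cochaperone, was higher at 1 h (0.88) and at 12 h (0.67). Tapbp, which loads peptide on MHC class I, was 0.92 higher at 12 h. The 3 that fell at 12 h were Tango2 (-0.95), Txndc16 (-0.65) and Emc6 (-0.09). By gene ontology, 10 of the 11 members annotated to the lumen rose at 12 h and 1 fell, with a median of 0.46. The 18 other tested genes with that term had 11 higher and 5 lower, with a median of 0.19. Of all tested genes 41.1% rose and 40.6% fell. Among the terms counted, the lumen had the highest share of members rising. The shares lay closest for transport from the endoplasmic reticulum to the Golgi. There 7 of 11 members rose and 1 fell, and of 50 other tested genes 29 rose and 11 fell. Over the terms counted, medians were 0.23 to 0.46 for members and 0.10 to 0.19 for other tested genes.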

How the data were processed

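RNA of 9 BV2 libraries was sequenced from a stranded mRNA kit, per the labels' protocols. The authors deposited 1 table of FPKM per gene and library with gene annotation. The submitters' processing notes name Cufflinks, DESeq, HISAT2, HTSeq and Trimmomatic, with no role or version, and the build GRCh38, a human one, although the genes are mouse genes; the build behind the values is therefore unclear, and coordinates come from RefSeq alone. The p-values, q-values and ranking score in the authors' deposited table were used only to describe which genes it lists. How the authors' FPKM treated reads with several matches is not given in the sources used here.

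FPKM was analysed as log2(FPKM + 1), so differences of low genes are understated. Genes with a mean of at least 1 FPKM entered a limma fit (version 3.58.1, R 4.3.3; moderated test with a mean-variance trend, all 9 libraries, no block). P-values were adjusted by Benjamini-Hochberg over the 5643 genes tested, and called at 0.05. The fit was tested on simulated data.

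The members, roles and lists were chosen with earlier results of these data known, so lists are described by counts and medians with no test. Named genes were, per role, up to 5 with the largest called 12 h difference, up to 2 in each other comparison, up to 2 going the other way at 12 h and 1 elsewhere, those opposite at 1 h and 12 h by at least 0.3, and a fixed set of core genes. Where a count was 5 or fewer, or a promoter held an element, further genes were named after their values were seen, and so was Atf6b. Promoters were matched by gene ID. The retrieval signals at protein ends were not analysed here. Alternatives changed the pseudocount (0.5, 0.1), the level filter (none, 5), the scaling (quantile, median of ratios), the trend, the libraries fitted and the replicate block, and left out each library in turn.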

Additional observations from a re-analysis of the deposited data

How the results depend on the processing

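Over the 12 h comparison with untreated cells, 54 of the 72 members called higher and all 9 called lower kept their call under all alternatives run in which they were tested; at 1 h these were 16 of 29 and 12 of 20, and between 12 h and 1 h 56 of 72 and 12 of 17. Quantile normalization mattered most. It gave 15 members lower at 12 h than in untreated cells, where the report gives 9, and 19 higher at 1 h, where it gives 29. It turned round the sign of 14 differences of members called with or without it, 10 of them at 12 h against untreated. Among the genes chosen by the naming rule these were 7: at 12 h against untreated Edem1 (-0.0126), Hsp90aa1 (-0.0484), Hspa8 (-0.119), Rpn2 (-0.123) and Sec61b (-0.0718), at 1 h against untreated Stt3a (-0.0817), and at 12 h against 1 h Hsp90aa1 (-0.0079). The cause was not tested. Leaving out 1 library at a time gave 69 to 74 members higher and 9 to 10 lower at 12 h against untreated, 23 to 29 and 16 to 20 at 1 h against untreated, and 66 to 72 and 13 to 17 at 12 h against 1 h. Correlations of deviations from the group means were -0.067 to 0.128 for same-numbered libraries and -0.146 to 0.138 for differently numbered ones. Deviations within groups of 3 cannot show whether samples were paired, and the labels do not say. Whether the numbers pair the samples is therefore unknown. With the replicate block 74 members were higher and 9 lower at 12 h against untreated, 29 and 20 at 1 h, and 72 and 17 at 12 h against 1 h. Without read counts, the counting error of low members such as Ern1 and Yod1 is unknown.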
